A study of Mus musculus with 6 samples.

Results

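The 10 receptor genes described here belong to the tumour necrosis factor (TNF) receptor superfamily and were measured in stem-like Lewis cells, a mouse lung carcinoma line. They are Tnfrsf9, Tnfrsf1a, Tnfrsf1b, Tnfrsf10b, Fas, Tnfrsf12a, Tnfrsf11b, Tnfrsf21, Tnfrsf22 and Tnfrsf23, and all 10 were matched by symbol among 54446 listed genes. They were chosen by family membership after levels and changes of these same libraries were known, so their differences between the groups are given below as descriptions with no p-value. The other 18 genes of the family, its ligands and its signalling genes were examined as separate lists. RNA was sequenced from untreated wild-type cells (Control, 3 libraries) and from wild-type cells given RT-MPs, a treatment whose name the labels do not spell out (3 libraries), all at 48 h. All 6 libraries come from 1 cell line, and nothing in the labels says whether replicates were separate cultures, so p-values cover only the spread between these samples, which may be technical.

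Receptors of this family bind trimeric ligands of the TNF superfamily through cysteine-rich repeats outside the cell. Those with a cytoplasmic death domain can recruit FADD or TRADD and start the caspase-8 cascade, whereas the others bind TRAF adaptors directly and lead to NF-kB and MAP kinase signalling. Some members are decoys that bind ligand without passing on a death signal.

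Levels are FPKM, reads per kilobase of exon and divided by library depth, and are therefore per length. The read totals implied by the values ranged from 16950150 to 21876220 per library. RT-MPs replicate 3 stood apart: its Pearson correlation with the other libraries was 0.959 to 0.969, against 0.984 to 0.993 for all other pairs, and its FPKM values summed to 585752 against 296966 to 303798, with 242123 of them in the short gene Gm23935. Of 7 general epithelial and lung markers, Krt8 was at 142.7 to 174.3 FPKM and Krt18 at 6.03 to 8.16, while Epcam and Nkx2-1 were listed at 0 in every library. Cdh1, Krt19 and Sftpc did not exceed 0.034, 0.159 and 0.053 FPKM. Of the genes often used for a stem-like state, Myc (234.1 to 289.0 FPKM) and Cd44 (50.2 to 63.0) were abundant, whereas Nanog was listed at 0 and Sox2 and Pou5f1 did not exceed 0.0469 and 0.0203. Because these are bulk samples, a lower level can come from fewer cells with the transcript or from less RNA per cell, and these cannot be told apart.

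The family was dominated by Tnfrsf9. In Control its mean was 186.4 FPKM, and the order of the other members was Tnfrsf1b (45.6), Tnfrsf1a (23.8), Tnfrsf22 (11.2), Tnfrsf12a (7.80), Tnfrsf23 (7.45), Tnfrsf10b (5.87), Fas (2.25), Tnfrsf21 (0.427) and Tnfrsf11b (0.0061). Tnfrsf12a and Tnfrsf23 were the neighbours whose ranges overlapped, in both groups. Their means changed places in RT-MPs, and no other pair did. Tnfrsf9 alone made up 56.7% to 61.1% of the FPKM summed over the 28 receptor genes in Control libraries and 68.8% to 70.1% in RT-MPs libraries. Its rank among 21918 protein-coding genes was 164 to 197 in Control and 111 to 130 in RT-MPs.

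**Figure D1:**
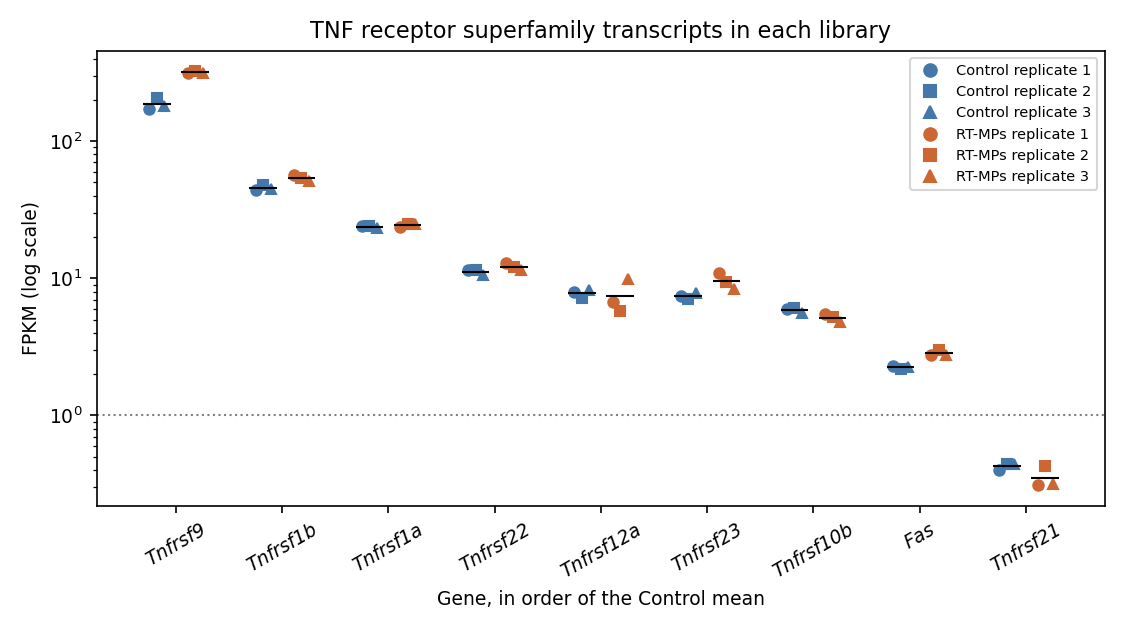
FPKM of 9 receptor genes in each of the 6 libraries on a log scale, with genes in order of the Control mean; symbols are libraries and black lines group means. Tnfrsf9 lies above all others in every library, and Tnfrsf21 lies below 1 FPKM, the filter shown as a dotted line; Tnfrsf11b, listed at 0 in 5 of 6 libraries, is left out.

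The comparison asks how receptor transcripts differ between treated and untreated cells, and differences are on the scale of log2(FPKM + 1), which understates the change of low genes. Of the 10 members, 8 had a mean of at least 1 FPKM and entered the fit, so that Tnfrsf21 and Tnfrsf11b carry no fitted value. By limma with Benjamini-Hochberg adjustment over 11915 genes at a threshold of 0.05, 1 of the 8 was called, Tnfrsf9, higher in RT-MPs, and 0 were called lower. Limma voom on recovered reads also called Tnfrsf9 and no other member. Over all tested genes 3.99% were called, 1.29% higher and 2.7% lower, and 27.3% had an unadjusted p under 0.05. The split of 154 higher and 322 lower turned to 255 and 122 with median-ratio scaling and to 195 and 153 with quantile normalization. This background of 476 genes moved with the libraries used: it was 0, 2 and 0 without Control replicates 1, 2 and 3, and 74, 10 and 2548 without RT-MPs replicates 1, 2 and 3. In 5 of the 8 the 3 values of one group all lay above the 3 of the other, as they did in 40.0% of all tested genes (4763). The median log2 change of the 8 was 0.18, beside -0.09 over all tested genes. Since results of this contrast were known when the members were chosen, nothing is read from these counts.

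**Figure D2:**
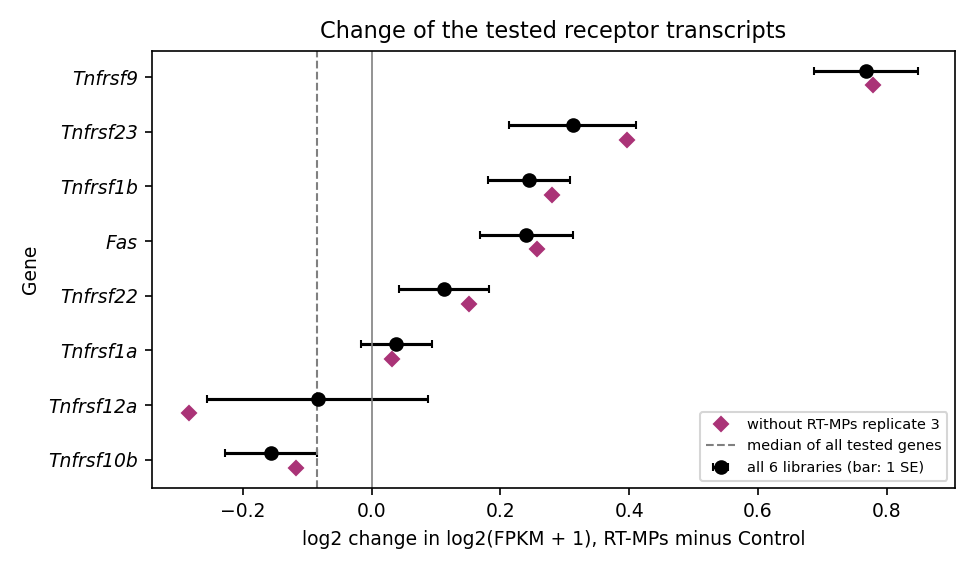
Log2 change (RT-MPs minus Control) of the 8 tested receptor genes from all 6 libraries, with bars of 1 SE, and from the fit without RT-MPs replicate 3 (diamonds). The dashed line is the median of all tested genes, -0.09; Tnfrsf9 is at 0.77, and Tnfrsf12a is the member whose value moves farthest, from -0.08 to -0.28, when that library is left out.

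Tnfrsf9, also called 4-1BB or CD137, is a costimulatory receptor best known from activated T cells, where it signals through TRAF1 and TRAF2. Its FPKM was 170.8, 206.7 and 181.7 in Control replicates 1 to 3 and 316.0, 322.6 and 312.7 in RT-MPs replicates 1 to 3. Every RT-MPs library lay above every Control library, and RT-MPs replicate 3 was the lowest of the treated libraries by a small margin. The means were 186.4 ± 18.4 and 317.1 ± 5.02 FPKM (SD, n = 3 in each group), a log2 change of 0.77 (SE 0.08), or 1.70-fold. It rested on 9546 to 18820 reads per library, and the gene annotated on the opposite strand, Camta1, had a mean of 2.41 FPKM. The value was 0.78 without RT-MPs replicate 3 and between 0.46 and 0.87 over all 17 settings. The call was not kept when any 1 Control library or RT-MPs replicate 2 was left out. It was also lost with a term for the replicate number, with no filter on low values, and after rescaling to a common sum (TPM).

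The defining markers of the lymphocytes in which this receptor is best known were at or near 0. Of the 11 T and NK cell markers, 9 were listed at 0 in all 6 libraries, among them Cd3e, Cd3d, Cd4, Cd8a and Ncr1, and the list summed to 0.06 to 0.11 FPKM in Control and at most 0.02 in RT-MPs. The 4 B cell markers summed to 0.03 to 0.18 FPKM and the 5 endothelial markers to 0.14 to 0.42. Of the 7 myeloid markers, Adgre1 and Csf1r were listed at 0 throughout, and the list summed to 28.9 to 33.1 FPKM in Control and 39.2 to 40.5 in RT-MPs, nearly all of it Cd68, a lysosomal membrane protein gene that other cell types also express (limma adjusted p = 0.0446, higher in RT-MPs). The part of the Cd68 difference in the receptor results was not tested.

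RefSeq (GRCm38.p6, the assembly of mm10) gives Tnfrsf9 more than 1 start, and the windows from 250 bases before to 50 after each are shown because they belong to the most abundant and most changed member. They lie on the plus strand at chr4:150919905-150920204 and chr4:150927749-150928048. The first holds neither of the motifs searched, and capitals in the second mark matches, on either strand, to the kappa-B consensus of NF-kB and to TGANTCA, the AP-1 motif.

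Tnfrsf9 upstream start: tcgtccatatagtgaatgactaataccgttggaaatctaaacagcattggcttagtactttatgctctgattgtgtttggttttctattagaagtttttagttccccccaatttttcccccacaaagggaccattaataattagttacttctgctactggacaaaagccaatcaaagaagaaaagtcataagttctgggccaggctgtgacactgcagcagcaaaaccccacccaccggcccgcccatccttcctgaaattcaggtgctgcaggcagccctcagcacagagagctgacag
Tnfrsf9 downstream start: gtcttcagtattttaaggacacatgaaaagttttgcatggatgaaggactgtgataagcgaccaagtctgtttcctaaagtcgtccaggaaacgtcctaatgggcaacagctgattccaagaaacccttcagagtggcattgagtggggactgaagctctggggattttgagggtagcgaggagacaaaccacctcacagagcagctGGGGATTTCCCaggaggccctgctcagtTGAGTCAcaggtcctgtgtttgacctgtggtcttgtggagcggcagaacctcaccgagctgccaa

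The kappa-B matches in the downstream window are 2 overlapping ones that begin at positions -43 and -42 from the start, and the AP-1 match begins at -15. Promoter windows were found for 7 of the 10 members, 8 windows in all; the members without one in the table are Tnfrsf10b, Tnfrsf11b and Tnfrsf22. Among these 8 windows the kappa-B consensus was found in 1 and TGANTCA in 2, where 4.51% and 7.81% of all 32851 windows of this length hold them. The other AP-1 match was in the window of Fas, shown here for comparison, at chr19:34290409-34290708 on the plus strand, where it begins at position -211.

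Fas start: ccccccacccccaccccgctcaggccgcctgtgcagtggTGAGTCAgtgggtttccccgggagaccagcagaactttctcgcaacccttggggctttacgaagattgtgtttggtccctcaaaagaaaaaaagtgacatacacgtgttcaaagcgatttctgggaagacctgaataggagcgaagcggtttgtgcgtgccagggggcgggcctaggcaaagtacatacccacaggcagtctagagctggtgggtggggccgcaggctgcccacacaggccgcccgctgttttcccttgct

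A match describes the letters of the window and does not show binding. The deposited tables hold 1 value per gene, so the starts of Tnfrsf9 were not compared in expression.

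The other members that signal through TRAF adaptors differed from one another. Tnfrsf1b encodes TNF receptor 2, which binds TNF and recruits TRAF2. Its FPKM was 44.4, 47.8 and 44.8 in the Control libraries and 57.0, 54.2 and 51.5 in the RT-MPs libraries. The groups did not overlap, and RT-MPs replicate 3 was the lowest of the treated libraries. The means were 45.6 ± 1.86 and 54.2 ± 2.78 FPKM (SD, n = 3), a log2 change of 0.24 (SE 0.06), which was not called, was 0.28 without RT-MPs replicate 3 and became -0.06 after rescaling to a common sum. In that setting, here and below, the median over all tested genes was -0.38. Tnfrsf12a encodes Fn14, the receptor of TWEAK, which is known as an early-induced gene in wounded and transformed tissue. Its FPKM was 7.996, 7.21 and 8.18 in the Control libraries and 6.67, 5.79 and 9.92 in the RT-MPs libraries. RT-MPs replicates 1 and 2 lay below every Control library and replicate 3 above every one of them. Its log2 change was -0.08 (SE 0.17), not called, and -0.28 without RT-MPs replicate 3, where it was called lower; it was 0.01 with median-ratio scaling and 0.002 with quantile normalization. In that fit of 5 libraries 5 of the 8 tested members were called (Tnfrsf9, Tnfrsf1b, Fas and Tnfrsf23 higher, Tnfrsf12a lower), and 21.4% of all tested genes were.

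Among the death domain receptors, Tnfrsf1a, which encodes TNF receptor 1, was the most abundant. Its FPKM was 24.0, 24.2 and 23.2 in the Control libraries and 23.7, 25.0 and 24.7 in the RT-MPs libraries, with overlapping groups. The log2 change was 0.04 (SE 0.06), and -0.26 after rescaling to a common sum. Relative to it in the same library, a ratio that a scaling factor per library cannot change, Tnfrsf1b stood at 1.84 to 1.97 in Control and 2.08 to 2.41 in RT-MPs, which do not overlap.

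Fas, the receptor of Fas ligand, was low. Its FPKM was 2.31, 2.19 and 2.27 in the Control libraries and 2.77, 3.01 and 2.75 in the RT-MPs libraries, on 85 to 125 reads per library. All RT-MPs libraries lay above all Control libraries. The means were 2.25 ± 0.0616 and 2.84 ± 0.147 FPKM (SD, n = 3), a log2 change of 0.24 (SE 0.07) that was not called, was 0.26 without RT-MPs replicate 3 and was 0.03 after rescaling to a common sum.

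Tnfrsf10b, the mouse receptor that passes on the death signal of TRAIL, was the member whose treated libraries all lay below the Control libraries. Its FPKM was 5.95, 6.10 and 5.56 in the Control libraries and 5.48, 5.19 and 4.84 in the RT-MPs libraries. RT-MPs replicate 3 was the lowest. The log2 change was -0.16 (SE 0.07), not called, and lay between -0.46 and -0.06 over the settings. Of the 50-base stretches in its annotated transcripts, 6.21% also occur in transcripts of other genes, 673 of them, so part of its reads is of uncertain origin.

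Tnfrsf21, which encodes death receptor 6, was near the limit of the depth. Its FPKM was 0.399, 0.440 and 0.441 in the Control libraries and 0.312, 0.427 and 0.316 in the RT-MPs libraries, on 22 to 35 reads per library. The groups overlapped.

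The decoy receptors differed widely in abundance. Tnfrsf11b encodes osteoprotegerin, a soluble receptor that captures RANKL and TRAIL, and 1 read was assigned to it in Control replicate 3 and none in the other 5 libraries. A count of 0 allows up to 3 reads, which is 0.049 to 0.063 FPKM in these libraries by counting error alone. Tnfrsf22 and Tnfrsf23 encode mouse TRAIL receptors that lack a death domain. They lie side by side on the minus strand of chromosome 7, at 143634806 to 143649661 and 143665809 to 143685872 (mm10), 16147 bases apart, with Tnfrsf26 6083 bases from Tnfrsf22.

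Tnfrsf22 was at 11.5, 11.5 and 10.5 FPKM in the Control libraries and 12.8, 12.2 and 11.5 in the RT-MPs libraries. The groups overlapped, the log2 change was 0.11 (SE 0.07), and it was -0.18 after rescaling to a common sum. Tnfrsf23 was at 7.43, 7.06 and 7.86 FPKM in the Control libraries and 10.9, 9.42 and 8.32 in the RT-MPs libraries. All treated libraries were higher, with RT-MPs replicate 3 the closest to Control. Its means were 7.45 ± 0.398 and 9.54 ± 1.28 FPKM (SD, n = 3), a log2 change of 0.31 (SE 0.10), not called, and 0.40 without RT-MPs replicate 3 and 0.05 after rescaling to a common sum. Of the 50-base stretches in the transcripts of Tnfrsf22, 17.3% also occur in Tnfrsf23, and 18.0% the other way round, and 27.4% of those of Tnfrsf22 occur in some other gene, so reads can be split between them and the separate values are uncertain. Tnfrsf26, the third gene of the cluster, was at 0.127 ± 0.0314 FPKM in untreated and 0.144 ± 0.0689 in treated libraries.

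Within each library the summed FPKM of both decoys was 3.05 to 3.3 times that of Tnfrsf10b in Control and 4.09 to 4.33 times in RT-MPs. These ranges do not overlap, and every RT-MPs library lay above every Control library. The ratio sets genes with a higher mean in RT-MPs over a gene with a lower mean. The share of all gene pairs that separate in this way was not computed, and single genes did in 40.0% of those tested. Tnfrsf23 over Tnfrsf22 was 0.613 to 0.749 in Control and 0.726 to 0.847 in RT-MPs, which overlap. How shared reads were counted is not known, so the summed values carry the same uncertainty.

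**Figure D3:**
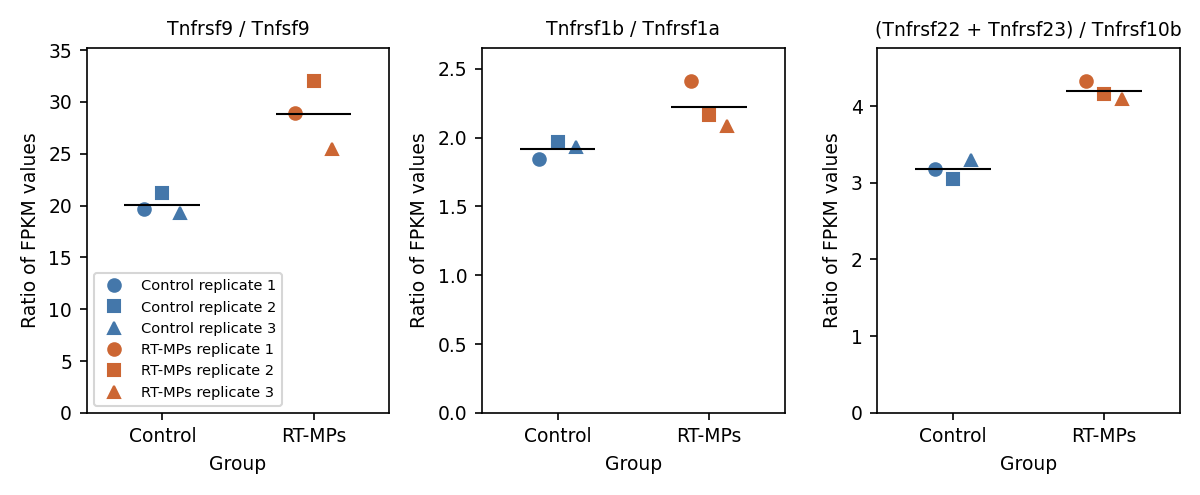
Ratios of FPKM values within each library, with axes from 0, symbols for libraries and lines for group means. Tnfrsf9 over its ligand Tnfsf9 is 19.3 to 21.2 in Control and 25.4 to 32.0 in RT-MPs; Tnfrsf1b over Tnfrsf1a is 1.84 to 1.97 and 2.08 to 2.41; the TRAIL decoys over Tnfrsf10b are 3.05 to 3.3 and 4.09 to 4.33.

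Few ligand genes passed the filter. Of the 18 TNF superfamily ligands, 8 were listed at 0 in all 6 libraries, among them Tnf and Fasl, for which 3 reads would be 0.071 to 0.108 FPKM, and 2 passed the filter. Tnfsf9, the ligand of Tnfrsf9, was at 9.27 ± 0.537 FPKM in untreated and 11.1 ± 1.13 in treated libraries (SD, n = 3), a log2 change of 0.23 (SE 0.09, limma adjusted p = 0.146), with groups that did not overlap. In each library Tnfrsf9 stood 19.3 to 21.2 times above it in Control and 25.4 to 32.0 times in RT-MPs. Tnfsf12, which encodes TWEAK, the ligand of Fn14, was at 3.96 ± 0.412 and 3.97 ± 0.934 FPKM (log2 change -0.01, SE 0.15, limma adjusted p = 0.962). Tnfsf10, the TRAIL gene, did not pass the filter, at 0.301 ± 0.0906 FPKM in untreated and 0.134 ± 0.0469 in treated libraries. Its groups did not overlap, on only 23 to 41 reads per Control library and 9 to 18 per RT-MPs library. By limma 0 ligands were called, and 0 by limma voom on recovered reads. Of the 2 tested, 1 had an unadjusted p under 0.05 (limma), beside 27.3% of all tested genes.

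Of the other 18 receptor genes, 5 passed the filter and 0 were called by limma or by voom. At an unadjusted p under 0.05 (limma) there was 1, beside 27.3% of all tested genes. Ltbr, the lymphotoxin beta receptor gene, lies 35476 bases from Tnfrsf1a on chromosome 6 and was the most abundant of them, at 15.0 ± 0.819 FPKM in untreated and 13.5 ± 1.40 in treated libraries (log2 change -0.15, SE 0.09, limma adjusted p = 0.317). Without RT-MPs replicate 3 it was -0.22 and was called lower, as was Eda2r (-0.29), in a fit that called 21.4% of all tested genes. With all 6 libraries Eda2r was at -0.49 (SE 0.17, limma adjusted p = 0.13). Its means were 3.47 ± 0.189 FPKM in untreated and 2.24 ± 0.712 in treated libraries, with groups that did not overlap. Cd40, a costimulatory receptor gene of antigen-presenting cells, was at 2.98 ± 0.354 and 3.40 ± 0.223 FPKM (log2 change 0.15, SE 0.09, limma adjusted p = 0.334). The median log2 change of the 5 genes was -0.15.

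Among the 21 adaptors, kinases and ubiquitin enzymes that lead from the receptors to NF-kB, 1 was called higher, 0 lower and 20 were not called. Over all tested genes 1.29% were called higher and 2.7% lower. The median log2 change of the 21 was 0.04. The called gene was Traf2, the adaptor bound by TNF receptor 2, 4-1BB and TRADD. Its FPKM was 6.16, 6.13 and 6.14 in the Control libraries and 8.56, 8.13 and 9.53 in the RT-MPs libraries. The Control libraries were nearly alike and all treated ones higher, a log2 change of 0.44 (SE 0.07, limma adjusted p = 0.0358). After rescaling to a common sum it was 0.19 and was not called. Ripk1, the kinase that stands between survival and death signalling at TNF receptor 1, was at 3.14 ± 0.1305 FPKM in untreated and 2.05 ± 0.332 in treated libraries (SD, n = 3), a log2 change of -0.45 (SE 0.10, limma adjusted p = 0.0587). Limma voom on recovered reads, which called 806 of all tested genes, called Traf2 higher and Ripk1 lower (log2 change -0.62). Traf1 had a log2 change of 0.15 (SE 0.11) and Birc3, an inhibitor of apoptosis and ubiquitin ligase gene, of 0.10 (SE 0.06). The most abundant genes of the list, Tab2 and Rbck1, which act in TAK1 activation and linear ubiquitin chains, had values of -0.12 (SE 0.10) and 0.10 (SE 0.09). Without RT-MPs replicate 3, where 21.4% of all tested genes were called, the called genes were Traf2, higher, and Ripk1 and Tradd, lower. Without any other library none was called, while the log2 change of Traf2 stayed at 0.44 to 0.49.

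Among the 8 deubiquitinases and brakes of the receptor complex, 1 was called higher, 1 lower and 6 were not called, with a median of 0.07. The shares over all tested genes were 1.29% higher and 2.7% lower. Tnfaip3 encodes A20, a ubiquitin-editing inhibitor of NF-kB and itself a known NF-kB target. Its FPKM was 2.32, 2.22 and 2.18 in the Control libraries and 4.11, 3.998 and 3.54 in the RT-MPs libraries, a log2 change of 0.59 (SE 0.08, limma adjusted p = 0.0292). Every treated library was higher. Otulin, which removes linear ubiquitin chains, went from 12.1, 11.5 and 11.7 FPKM to 7.96, 8.45 and 7.39, a log2 change of -0.52 (SE 0.07, limma adjusted p = 0.0292), with no overlap. The brakes Tnip1 and Tax1bp1 had values of 0.14 (SE 0.07) and -0.19 (SE 0.12) and were not called. Both calls held without RT-MPs replicate 3, where 21.4% of all tested genes were called. Neither held without any other library, where 0 to 74 of all tested genes were called. In those fits the log2 change of Tnfaip3 was 0.56 to 0.61 and that of Otulin -0.56 to -0.49. After rescaling to a common sum the values were 0.44 and -0.84, and neither was called.

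The death branch list held genes of the caspase-8 cascade, of the mitochondrial arm of apoptosis, such as Apaf1 and Casp9, and of necroptosis. None of its 13 tested genes was called by limma, and 0 by voom. At an unadjusted p under 0.05 (limma) there were 7, beside 27.3% of all tested genes. Of the 13, 10 had a lower mean in RT-MPs, and the median was -0.17, beside -0.09 over all tested genes. Without RT-MPs replicate 3, where 21.4% of all tested genes were called, 7 of these were: Apaf1 and Cflar higher, and 5 lower, among them Bid, Casp9, Fadd and Zbp1. Casp8, the initiator caspase gene of death receptors, was at 15.7 ± 0.595 FPKM in untreated and 13.0 ± 1.75 in treated libraries (log2 change -0.26, SE 0.10, limma adjusted p = 0.157). Cflar, which encodes the caspase-8 inhibitor c-FLIP, was at 14.5 ± 0.243 and 14.9 ± 2.83 FPKM (log2 change 0.02, SE 0.13, and 0.18 without RT-MPs replicate 3). Mlkl, the pore-forming protein gene of necroptosis, was at 63.1 ± 1.59 and 62.4 ± 5.92. Ripk3, the kinase that activates MLKL, was listed at 0 in every library.

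Of the 4 genes of ectodomain shedding 0 were called by limma, with 3 at an unadjusted p under 0.05, beside 27.3% of all tested genes, and 0 by voom. The metalloprotease gene Adam17, which releases TNF and TNF receptors from the cell surface, was at 28.6 ± 0.289 FPKM in untreated and 26.5 ± 4.51 in treated libraries (log2 change -0.12, SE 0.12, and 0.025 without RT-MPs replicate 3). Adam10 was at 28.7 ± 1.17 and 21.01 ± 5.13 FPKM (log2 change -0.46, SE 0.17, limma adjusted p = 0.149). In the fit without RT-MPs replicate 3, which called 21.4% of all tested genes, Adam10 was called lower and the iRhom genes Rhbdf1 and Rhbdf2 higher.

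**Figure D4:**
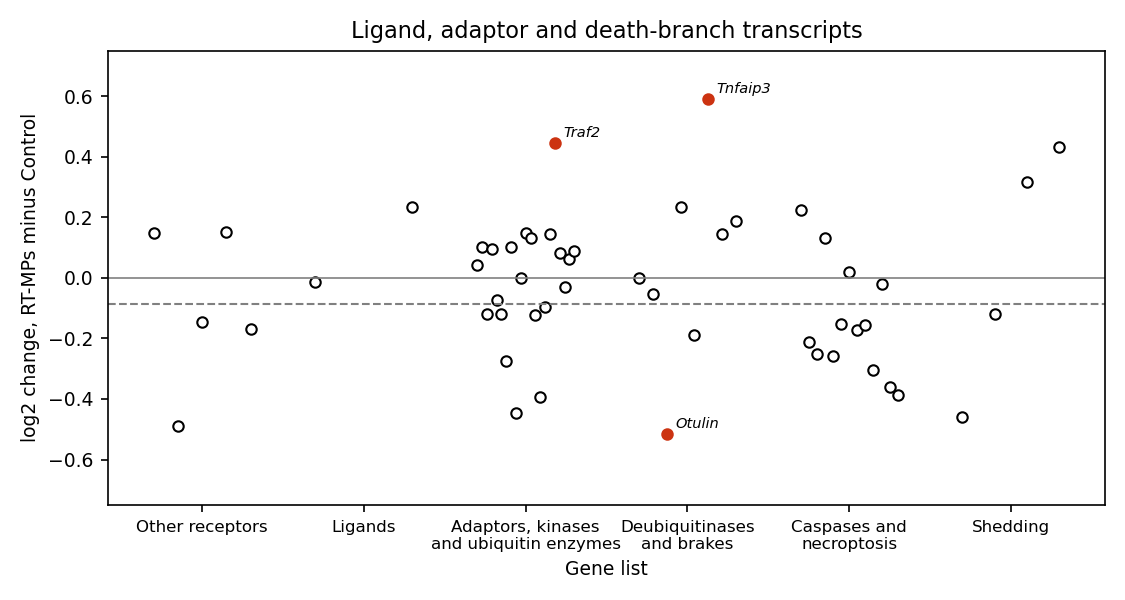
Log2 change (RT-MPs minus Control) of each tested gene of 6 lists; filled red points passed an adjusted p of 0.05 over all genes (limma), open points did not, and the dashed line is the median of all tested genes, -0.09. Traf2 and Tnfaip3 lie at 0.44 and 0.59, and Otulin at -0.52.

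For the 3 members with the highest absolute change, the genes whose log2(FPKM + 1) followed them most closely over the 6 libraries were looked up, as a description: 6 points in 2 groups, chosen among 11915 genes, give high correlations easily. The choice of Tnfrsf1b, at 0.244, over Fas, at 0.24, depends on the scale. With a pseudocount of 0.1 they were at 0.249 and 0.321. Tnfrsf9 was followed by Nos2, the inducible nitric oxide synthase gene (Pearson r = 0.9995), Areg, which encodes the EGF receptor ligand amphiregulin (0.9979), and Ppme1 (0.9965). Tnfrsf23 was followed by Birc3 (0.9862), the copper transporter gene Slc31a1 (0.9818) and the mitochondrial arginase gene Arg2 (0.9782). Tnfrsf1b was followed by Aig1 (0.9966), Kctd10 (0.9961) and the desaturase gene Scd2 (0.9922).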

How the data were processed

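The 6 RNA sequencing libraries fall into 2 groups of 3 by the sample labels. Per the labels' protocols, libraries were made from Trizol-extracted RNA with a stranded mRNA kit. Per the submitters' processing notes, HISAT2 and mm10 were used; the sources used here do not give versions, counter, annotation or strand use. What the authors deposited is 1 table of FPKM per library.

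The members and gene lists were chosen with earlier results of these data known. Exon lengths per gene and gene positions came from GENCODE M21 (54409 of 54446 identifiers). FPKM times length times a library total gave whole reads, within 0.1, for 98.9% to 99.1% of values up to 20 reads; those totals serve as depth. Low values are imprecise; Tnfrsf9 rests on at least 9546 reads per library.

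Genes with a mean of at least 1 FPKM (11915) were tested as log2(FPKM + 1) with R 4.3.3 and limma 3.58.1 (linear model, moderated variance with an intensity trend), two-sided, Benjamini-Hochberg adjusted, threshold 0.05, without a replicate term. The fit was also tested on simulated data in which no library stood apart. That test therefore does not cover a library like RT-MPs replicate 3. Tables and figures used Python 3.11.15, pandas 2.3.3 and matplotlib 3.10.9. Alternatives were other pseudocounts and filters, scalings, a replicate block, arrayWeights, leaving out each library and, added after seeing the data, limma voom on recovered reads. Named genes were all members and, of each list, up to 6 called genes, the 2 most abundant and 15 fixed genes. Eda2r, Tradd, Apaf1, Bid, Casp9, Fadd, Zbp1, Ripk3, Rhbdf1 and Rhbdf2 were named after their values were seen. A gene that this rule names is not reported here.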

Additional observations from a re-analysis of the deposited data

How the results depend on the processing

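Over all tested genes 476 were called, and this count was 26 with no filter, 46 after rescaling to a common sum (TPM), 4576 with arrayWeights, 806 with limma voom on recovered reads (added after seeing the data), and between 0 and 2548 with a library left out. It stayed within 1.5 times with other pseudocounts, a stricter filter (mean of 5 FPKM or more), quantile normalization and median-ratio scaling, but 154 higher and 322 lower became 195 and 153 with quantile normalization and 255 and 122 with median-ratio scaling. Of the receptor members 1 was called, against 0 with no filter and after TPM rescaling, 2 with median-ratio scaling (Tnfrsf1b and Tnfrsf9), 2 with quantile normalization (Fas and Tnfrsf9), 6 with arrayWeights, and 0 to 5 with a library left out. Counts of the lists with arrayWeights were 2 other receptors, 1 ligand, 8 adaptor and ubiquitin genes, 5 brakes, 8 death branch genes and 3 shedding genes. Adaptor and ubiquitin genes had 0 calls with no filter and after TPM rescaling, 2 with voom, and 0 to 3 with a library left out. Brakes had 0 with no filter and after TPM rescaling, 1 at a mean of at least 5 FPKM, and 0 to 2 with a library left out. Death branch genes had 1 (Apaf1) with median-ratio scaling and with quantile normalization, and 0 to 7 with a library left out. Other receptors had 0 to 2 and shedding genes 0 to 3.

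With TPM rescaling the all-gene median went from -0.09 to -0.38, and all 8 tested members moved by more than their replicate SD. This rescaling divides each value by the FPKM sum of its library. That sum was 585751.9 in RT-MPs replicate 3, with 242123 of it in Gm23935, and 296966.4 to 303798.5 in the others. TPM rescaling turned Cd40 to -0.097, Tnfsf9 to -0.049, Rbck1 to -0.20, Traf1 to -0.035, Birc3 to -0.18, Tnip1 to -0.15 and Cflar to -0.28, none of them called. Tnfsf12 was 0.073 with median-ratio scaling, 0.10 with quantile normalization and -0.147 to 0.128 with a library left out. Mlkl was 0.084 with median-ratio scaling, 0.023 with arrayWeights and -0.079 to 0.055 with a library left out, and Adam17 was 0.013 with arrayWeights and -0.194 to 0.025. Cflar lay between -0.063 and 0.177 with a library left out. The cause of the changes in the other settings was not tested.

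Same-numbered libraries were not paired by the labels, and the correlations of their deviations from the group means were 0.096, -0.082 and -0.029. With a replicate block 0 genes were called, so 0 members, adaptor genes and brakes. Depth limits Tnfrsf21, Tnfrsf11b and most ligands.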
